A study of Mus musculus with 4 samples.

Results

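The proteins described here coat lipid droplets or help to build them, and their genes were followed in the ovary of mice with an overexpressed oxytocin receptor gene (Oxtr) and of wild-type mice. There are 10 member genes, Plin1, Plin2, Plin3, Plin4, Plin5, Cidec, Cideb, Fitm2, Bscl2 and Hilpda, and each was found by its symbol as 1 of the 21958 gene rows of the deposited table. Plin1, Plin4 and Cidec are set apart as fat-cell members. Plin2, Plin3, Fitm2, Bscl2 and Hilpda are the widely expressed members, and Plin5 (a perilipin of oxidative tissues) and Cideb (a gene of liver and gut) belong to neither group.

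The OxtrTg group (replicates 3 and 4) carries the labels ++Oxtr and tg, and the WT group (replicates 5 and 6) carries the label wt. Per the series design text all females were in diestrus, while the sources used here do not give strain, age, the promoter of the transgene or any pooling of animals. Source and tissue are labelled ovary in every library, while the RNA extraction text names white adipose tissue, and the labels do not settle the difference. Libraries held 15229810 to 16517764 counts, so a count of 0 allows up to 0.182 to 0.197 CPM (CPM is the count scaled to a common library total, here with TMM). Ovarian markers were present in all 4 libraries, with the granulosa gene Foxl2 at 157 to 207 CPM and the oocyte gene Zp3 at 42.9 to 78.0 CPM. Oxtr itself stood at 110 and 161 CPM in OxtrTg and at 29.2 and 55.5 CPM in WT, in the order of the labels.

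Neutral lipid, either triglyceride or cholesteryl ester, is stored in droplets that bud from the endoplasmic reticulum, and perilipins bind the droplet surface and set the access of lipases. Plin1 guards the large droplet of fat cells, and Cidec (Fsp27 in the mouse) lets droplets fuse into that single large one. Plin2 and Plin3 coat the small droplets of most cells. In the ovary, droplets of luteal, theca and interstitial cells hold cholesteryl ester as stock for steroid hormones.

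The promoter windows of the fat-cell members and of the most abundant widely expressed members are shown first, because the expression of these sets is contrasted below. Each runs from 250 bases before to 50 bases after a RefSeq transcript start on GRCm38.p6, all on the minus strand and printed 5′ to 3′. Capitals mark GGGCGG (a GC box) and AGGTCA (the half-site of many nuclear receptors), searched on both strands, where overlapping matches are merged.
Plin1, chr7:79732727-79733026: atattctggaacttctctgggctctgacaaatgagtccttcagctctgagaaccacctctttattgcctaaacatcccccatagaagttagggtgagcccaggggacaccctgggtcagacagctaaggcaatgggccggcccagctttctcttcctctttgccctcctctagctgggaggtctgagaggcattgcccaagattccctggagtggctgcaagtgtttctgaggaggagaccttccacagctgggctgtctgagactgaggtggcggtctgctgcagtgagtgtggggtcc
Cidec, upstream start, chr6:113435711-113436010: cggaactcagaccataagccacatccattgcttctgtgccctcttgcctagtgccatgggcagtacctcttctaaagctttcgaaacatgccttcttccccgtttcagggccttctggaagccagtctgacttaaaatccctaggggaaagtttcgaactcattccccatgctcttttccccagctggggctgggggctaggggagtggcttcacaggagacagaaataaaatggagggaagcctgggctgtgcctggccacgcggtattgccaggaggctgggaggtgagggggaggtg
Cidec, downstream start, chr6:113434715-113435014: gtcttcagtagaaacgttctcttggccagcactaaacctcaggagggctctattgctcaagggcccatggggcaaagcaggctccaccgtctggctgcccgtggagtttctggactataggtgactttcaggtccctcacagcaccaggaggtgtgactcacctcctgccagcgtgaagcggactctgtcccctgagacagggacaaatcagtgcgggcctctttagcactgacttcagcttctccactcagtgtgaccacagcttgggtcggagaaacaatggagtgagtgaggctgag
Plin4, chr17:56109733-56110032: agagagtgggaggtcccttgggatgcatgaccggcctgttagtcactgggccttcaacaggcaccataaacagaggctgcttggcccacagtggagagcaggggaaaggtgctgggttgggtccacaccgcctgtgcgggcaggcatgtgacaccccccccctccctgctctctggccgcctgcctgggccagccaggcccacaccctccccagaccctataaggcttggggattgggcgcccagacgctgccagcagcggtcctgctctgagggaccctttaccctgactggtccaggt
Plin2, chr4:86670010-86670309: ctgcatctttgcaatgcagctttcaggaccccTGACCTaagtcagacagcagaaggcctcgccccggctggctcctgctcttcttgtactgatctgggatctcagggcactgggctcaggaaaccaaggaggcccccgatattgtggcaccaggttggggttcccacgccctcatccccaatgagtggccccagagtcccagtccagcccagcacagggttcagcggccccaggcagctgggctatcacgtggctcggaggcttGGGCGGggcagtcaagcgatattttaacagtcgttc
Plin3, chr17:56290462-56290761: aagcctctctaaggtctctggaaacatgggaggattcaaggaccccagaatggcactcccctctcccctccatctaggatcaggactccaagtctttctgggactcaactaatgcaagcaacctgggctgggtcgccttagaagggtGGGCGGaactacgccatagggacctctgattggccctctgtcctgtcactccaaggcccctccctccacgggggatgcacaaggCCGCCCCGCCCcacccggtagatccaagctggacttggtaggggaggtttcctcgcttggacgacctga

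GGGCGG was in the windows of 0 of 3 fat-cell members, whereas 7 of the 7 other members held it in at least 1 window. It was in 35.7% of all 32851 windows. The shares over all windows given here are per window and not per gene, and no share per gene was taken. A member with several windows has more places for a match, and Bscl2 lacked GGGCGG in some of its windows. Plin3 had 3 matches and Plin2 had 1. AGGTCA was in at least 1 window of Plin2, Plin5 and Bscl2 and in none of Plin1, Plin3, Plin4, Cidec, Cideb, Fitm2 and Hilpda, against 16.3% of all windows, so it did not separate the fat-cell members from the others. PPAR receptors bind the DR1 element, a direct repeat of that half-site with 1 base between. Its exact letters, with no mismatch allowed, were in none of the 15 windows of the 10 members. They were in only 0.0396% of all windows, so their absence from 15 windows cannot tell whether PPAR sites are present. The Plin1 window had 2 CpG dinucleotides, the Cidec windows 6 and 7, the Plin4 window 7, and the Plin2 and Plin3 windows 10 and 9. The Bscl2 windows had 16, 3 and 5, the Cideb window 7, and the Fitm2 window 16. The Hilpda windows had 13 and 27, and the Plin5 windows 16 each. The CpG counts of the fat-cell members thus overlapped those of Bscl2 and Cideb. These matches describe the letters of short windows, and no measurement of binding was made.

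In each OxtrTg library Cidec and Plin1 stood above either WT library. Plin4, the other fat-cell member, overlapped between the genotypes, and the widely expressed members lay within 0.48 of 0 on the log2 scale. The Cidec level was 101 CPM (OxtrTg replicate 3) and 78.3 CPM (replicate 4), against 9.76 CPM (WT replicate 5) and 9.54 CPM (replicate 6), and values below keep that order. The groups were thus far apart, and the WT libraries were nearly equal. The means were 89.4 ± 15.7 and 9.65 ± 0.15 CPM (SD, n = 2 each), a ratio of 9.26 and a log2 difference of 3.21 ± 0.18 (SE).

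Plin1, the perilipin of fat cells that is also found in steroid-making cells, was at 110 and 75.8 CPM in OxtrTg and at 22.8 and 35.6 CPM in WT. The lowest OxtrTg library was above the highest WT library, but the WT libraries were spread. The means were 92.8 ± 24.1 and 29.2 ± 9.06 CPM (SD, n = 2 each), a ratio of 3.18 and a log2 difference of 1.67 ± 0.31 (SE). In bulk tissue, fewer cells of a type and less RNA per cell cannot be told apart.

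Plin4, a perilipin that moves onto nascent droplets in fat cells, was at 107 and 92.1 CPM in OxtrTg and at 26.5 and 108 CPM in WT. WT replicate 5 alone was low. WT replicate 6 was about level with OxtrTg replicate 3 (16.8 and 17.1 FPKM) and above OxtrTg replicate 4 (14.2 FPKM). The log2 difference was 0.57 ± 0.67 (SE). It was -0.12 without WT replicate 5 and 1.91 without WT replicate 6, so that 1 library set its direction. Plin4 overlaps Hdgfl2 on the opposite strand in the deposited table, and the strand setting of the counting is not given, so reads in the overlap cannot be assigned. Hdgfl2 itself ran only from 82.3 to 86.9 CPM across the 4 libraries.

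**Figure D1:**
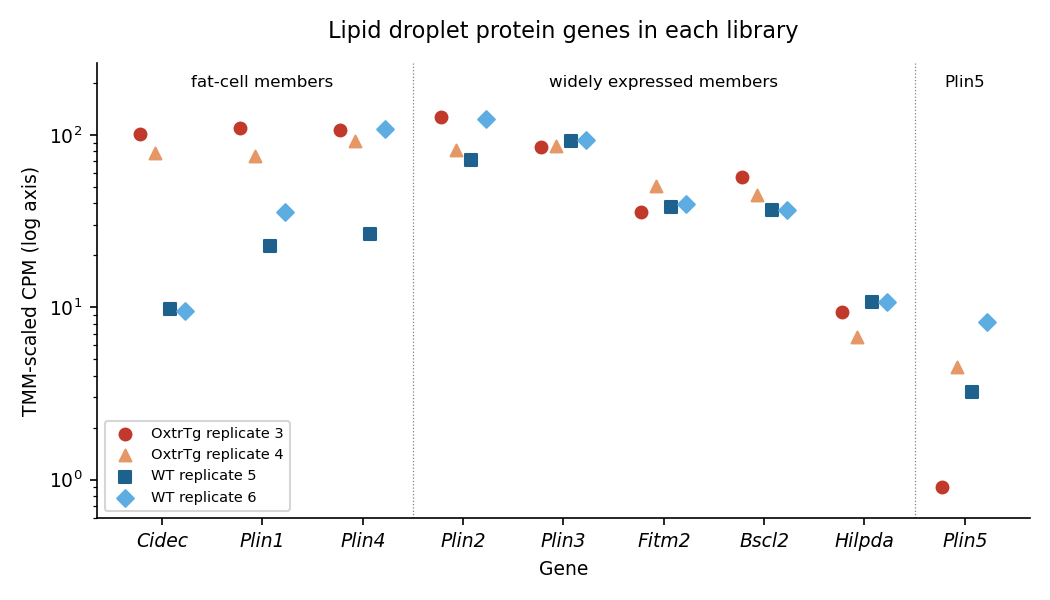
TMM-scaled CPM (log axis) of the 9 members that could be tested, 1 point for each library. Cidec and Plin1 in OxtrTg (red and orange) sit above WT (blues), Plin4 is low in WT replicate 5 alone, and Plin3 runs only from 84.6 to 92.9 CPM.

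Over all 15311 genes tested, edgeR's quasi-likelihood test with Benjamini-Hochberg adjustment called 0 members higher and 0 lower, as it called 0% of all genes in either direction. Cidec had an adjusted p of 0.205 (unadjusted 3.1e-05), where the smallest adjusted p of any gene was 0.177, and Plin1 an adjusted p of 1 (unadjusted 0.00443). With no adjustment, 324 genes were higher and 69 lower at an edgeR p under 0.05, and limma-voom also called 0 genes. DESeq2 called Cidec (adjusted p = 1.1e-33) and Plin1 (adjusted p = 6.5e-04) higher, 2 members, where it called 0.431% of all genes higher. It called 0 members lower, against 0.0196% of all genes. The Plin1 call of DESeq2 was lost without OxtrTg replicate 3 (adjusted p = 0.193), and Plin4 was called without WT replicate 6 (adjusted p = 3.4e-06). Each of these fits has 1 library in an arm, which is assumed to vary like the other group, and for Plin4 that library is the low WT replicate 5.

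The other members were split in direction. Bscl2, Cidec and Plin1 were the 3 of 9 tested members that lay higher in both OxtrTg libraries, where 14.5% of all genes tested did. Plin3 and Hilpda were the 2 that lay lower in both, where 11.7% of all genes tested did. Cideb did not reach the filter on low counts and is therefore outside these counts.

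**Figure D2:**
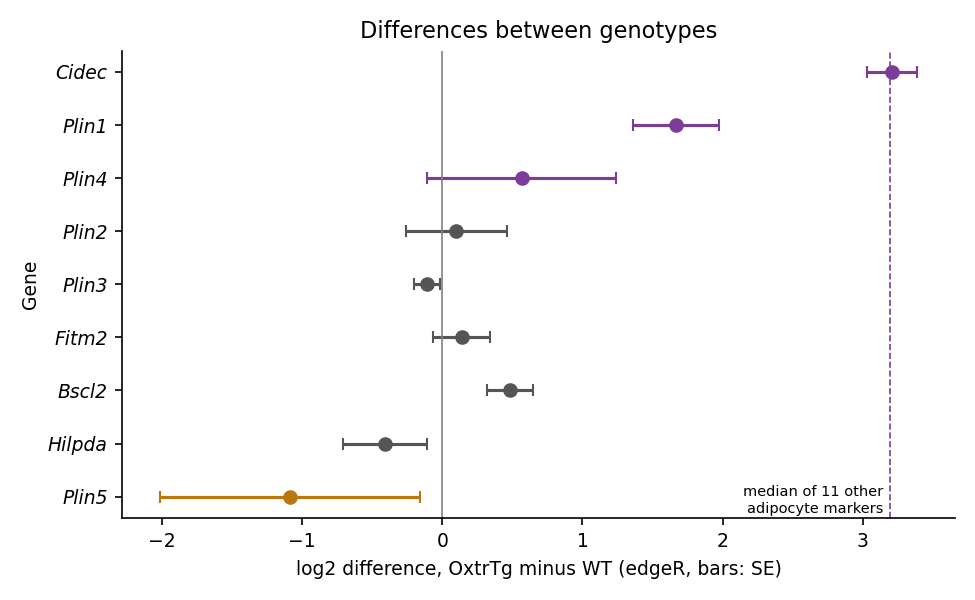
Log2 difference (OxtrTg minus WT, edgeR) of each tested member, with bars for the SE, and a dashed line at the median of 11 adipocyte markers that are not members (3.20). Cidec at 3.21 lies at that line, Plin1 at 1.67 and Plin4 at 0.57 lie short of it, and the widely expressed members lie near 0. The 11 markers themselves range from 0.405 to 3.803.

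Of the widely expressed members, Plin2, which coats droplets in most cells that load lipid, was at 127 and 81.7 CPM in OxtrTg and at 71.1 and 124 CPM in WT. OxtrTg replicate 3 and WT replicate 6 were the high libraries, one of each genotype, and the groups overlapped. The log2 difference was 0.10 ± 0.36 (SE). Plin3, a perilipin that shuttles between cytosol and droplets, was at 84.6 and 86.6 CPM in OxtrTg and at 92.0 and 92.9 CPM in WT. Its replicates were the closest of the perilipins, and its log2 difference of -0.11 ± 0.09 (SE) did not pass (adjusted p = 1 in edgeR).

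Bscl2 and Fitm2 act where droplets are made. Bscl2 encodes seipin, which sits where droplets bud and which fat cell differentiation requires. It was at 57.1 and 45.0 CPM in OxtrTg and at 36.6 and 36.5 CPM in WT, higher in both OxtrTg libraries by 0.48 ± 0.16 (SE) on the log2 scale, and did not pass (adjusted p = 1 in edgeR and in DESeq2). Without OxtrTg replicate 3 the difference was 0.30. Bscl2 overlaps Gng3 on the opposite strand and Gm50139 on its own strand in the deposited table. Gng3 was at 2.27 to 3.43 CPM, and Gm50139 had 0 counts in every library. Fitm2, which partitions triglyceride into droplets, was at 35.8 and 50.3 CPM in OxtrTg and at 38.3 and 39.9 CPM in WT, so that the OxtrTg libraries lay on either side of WT. Hilpda, a hypoxia-inducible inhibitor of the lipase ATGL, was at 9.39 and 6.68 CPM in OxtrTg and at 10.7 CPM in each WT library (log2 difference -0.41 ± 0.30, SE, adjusted p = 1 in edgeR). That difference was -0.68 without OxtrTg replicate 3 and -0.19 without OxtrTg replicate 4.

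Plin5, which couples droplets to mitochondria, was the least abundant member that could be tested. It was at 0.907 and 4.48 CPM in OxtrTg and at 3.21 and 8.22 CPM in WT, from 14 to 131 counts. OxtrTg replicate 3 was the low library, and the other OxtrTg library lay between those of WT. The log2 difference was -1.09 ± 0.93 (SE). It was -0.36 without OxtrTg replicate 3 and -2.65 without OxtrTg replicate 4, and -1.62 and -0.26 without WT replicates 5 and 6, and none of these 4 fits passed in edgeR or DESeq2. Cideb had 0, 0, 0 and 1 counts in the 4 libraries, which was at or under the limit that a count of 0 allows. Cideb overlaps Nop9 on the opposite strand in the deposited table, and Nop9 was at 36.2 to 40.5 CPM. With the strand setting not given, reads in that overlap cannot be assigned.

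The deposited table places Plin4 (56407591 to 56416803) and Plin5 (56418601 to 56424596) beside each other on the minus strand of chromosome 17, with 1797 bases between them, in positions whose build it does not name. Plin5 had its highest level in WT replicate 6. Plin4 was about equally high there and in OxtrTg replicate 3, at 108 and 107 CPM and at 16.8 and 17.1 FPKM. Plin4 and Plin5 parted in OxtrTg replicate 3, where the log2 deviation from the 4-library mean was 0.55 for Plin4 and -1.83 for Plin5. They also parted in WT replicate 5, where it was -1.46 and -0.00.

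The contrast between fat-cell and widely expressed members was taken within each library as the mean log2 CPM of Plin1, Plin4 and Cidec minus that of Plin2, Plin3, Fitm2, Bscl2 and Hilpda. It was 1.20 and 1.02 for OxtrTg, against -1.13 and -0.43 for WT. It is a mean over members and not per length, so it gives no order between single members. The OxtrTg minus WT difference was 1.89, against a pooled SD between replicates of 0.36, and it gets no test because the members were chosen with results known. The widely expressed mean ran from 5.31 to 5.52 over the 4 libraries, and the fat-cell mean from 4.17 to 6.72.

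Levels can be set side by side between genes in FPKM, which divides by gene length. In both OxtrTg libraries Cidec had the highest FPKM of the 10 members, 54.9 and 41.2, followed by Plin2 with 36.8 and 22.7. In WT replicate 5 the order began with Plin3 (24.7 FPKM) and Plin2 (20.6), and Cidec with 5.35 was the sixth. In WT replicate 6 it began with Plin2 (35.0 FPKM) and Plin3 (24.3), followed by Plin4 (16.8), and Cidec with 5.09 was the eighth. In WT replicate 5, Fitm2 and Hilpda lay together at 9.83 and 9.82 FPKM.

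Plin1 took 23.7% and 20.6% of the summed perilipin FPKM in OxtrTg and 8.88% and 8.65% in WT. Its share was thus apart between the genotypes while its WT level was spread. Plin2 held 36.5% and 29.4% in OxtrTg and 36.7% and 40.0% in WT, and Plin3 held 22.5% and 28.9% against 44.0% and 27.7%. Plin4 held 16.9% and 18.3% in OxtrTg against 7.56% and 19.2% in WT. The summed FPKM of the 5 perilipins was 101 and 77.3 in OxtrTg and 56.1 and 87.5 in WT, and these groups overlapped.

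**Figure D3:**
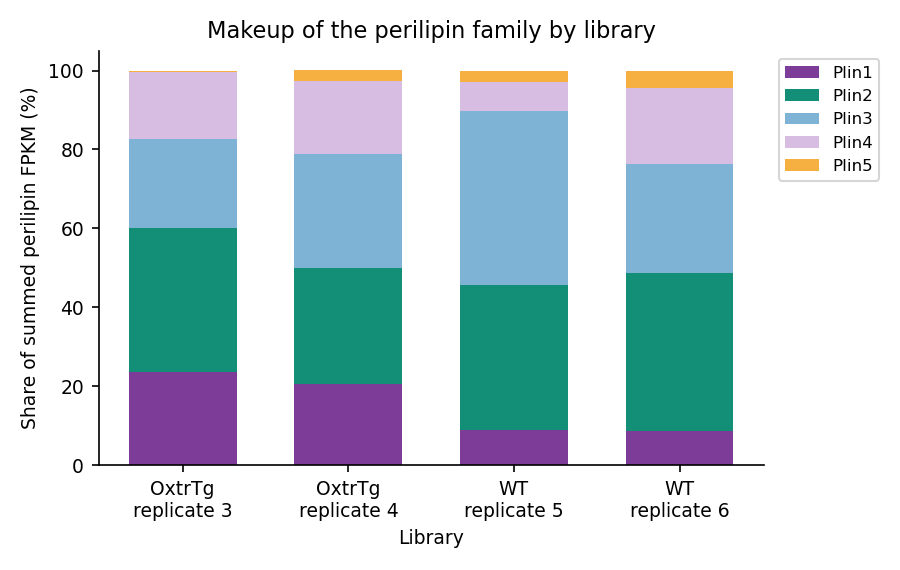
Percent of the FPKM summed over Plin1 to Plin5 in each library, as stacked bars. The Plin1 part is 23.7% and 20.6% in OxtrTg and 8.88% and 8.65% in WT, and Plin4 is smallest in WT replicate 5.

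Markers of fat cells moved with Cidec and Plin1. Of 11 adipocyte markers tested, none of them a member, 11 were higher in both OxtrTg libraries, where 14.5% of all genes tested were. DESeq2 called 9 higher, where it called 0.431% of all genes higher, and edgeR called 0. The median log2 difference of these markers was 3.20 against -0.00 over all genes tested, with a range of 0.405 to 3.803. Lpl was at 1.80, and the fat-cell regulators Pparg at 0.459 and Cebpa at 0.405 were called by neither tool. The summed level of the 11 markers was 2595 and 1933 CPM in OxtrTg and 396 and 376 CPM in WT, and none of the 11 was at 0 in every library. Among the defining markers, Adipoq (adiponectin) was at 114 and 65.8 CPM in OxtrTg and at 8.39 and 7.79 CPM in WT. Cfd (adipsin), Retn (resistin) and Lep (leptin) had edgeR log2 differences of 3.20 to 3.803. The part of fat-cell RNA in the results for Cidec and Plin1 was not tested.

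The fat-cell members were also set against Adipoq within each library. The FPKM ratio of Cidec to Adipoq was 0.658 and 0.885 in OxtrTg and 0.865 and 0.912 in WT, so that the groups overlapped. The ratio of Plin1 to Adipoq was 0.287 and 0.342 in OxtrTg and 0.807 and 1.36 in WT, and that of Plin4 was 0.205 and 0.304 against 0.686 and 3.02. For both perilipins the WT libraries lay above the OxtrTg libraries. The same order held for Plin2 (0.441 and 0.488 against 3.335 and 6.27), Plin3, Plin5, Fitm2, Bscl2 and Hilpda. Adipoq itself was at 83.4 and 46.6 FPKM in OxtrTg and at 6.18 and 5.575 FPKM in WT. A gene that differed much less than Adipoq between the genotypes takes this order, so it is not particular to Plin1 and Plin4. For comparison, the ratio of Retn to Adipoq was 0.516 and 0.520 in OxtrTg and 0.490 and 0.324 in WT. These ratios are descriptions of 4 libraries, with no test.

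**Figure D4:**
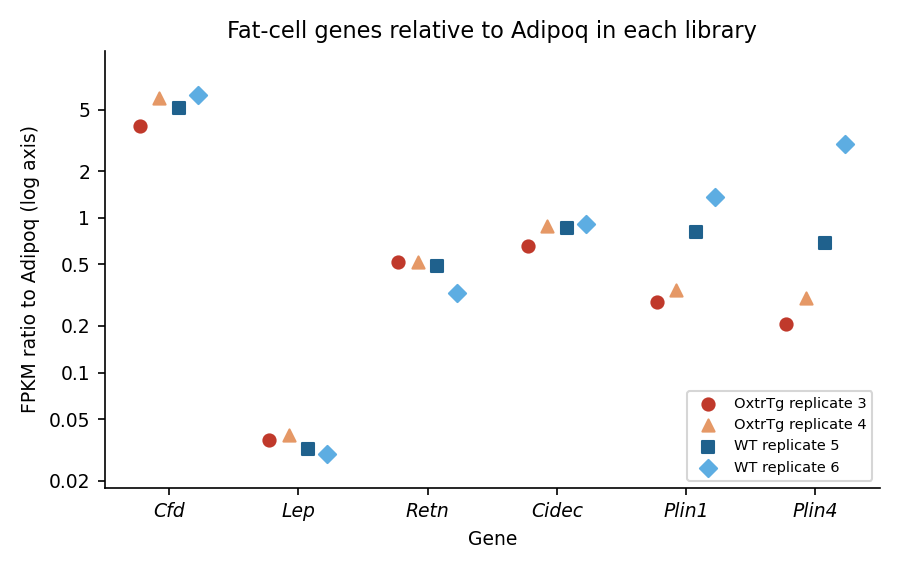
FPKM ratio to Adipoq (log axis) of the adipocyte markers Cfd, Lep and Retn and of the fat-cell members, 1 point for each library. Cidec stays between 0.658 and 0.912 in all 4 libraries, whereas Plin1 and Plin4 have higher ratios in both WT libraries than in both OxtrTg libraries. Plin2, Plin3, Plin5, Fitm2, Bscl2 and Hilpda, which are not shown, have that order too.

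Some other cell types varied between single libraries. Luteal and steroidogenic markers summed to 2619 and 2554 CPM in OxtrTg, and to 2354 and 9622 CPM in WT, where replicate 6 was the high library. Plin1, Plin2, Plin4 and Plin5 stood higher in that library than in WT replicate 5, in CPM and in FPKM. Plin3, Fitm2, Hilpda, Cidec and Bscl2 were nearly equal between the WT libraries, and for Plin3 and Hilpda the direction differed between CPM and FPKM. The share of all genes that were higher in WT replicate 6 was not taken. Of the 7 luteal and steroidogenic markers tested 0 were higher and 1 was lower in both OxtrTg libraries, where 14.5% and 11.7% of all genes tested were. Akr1c18, which marks regressing corpora lutea, was at 0.535 CPM or less in the other 3 libraries and at 252 CPM in WT replicate 6. Star was at 257 CPM there against 42.8 to 50.5, Cyp11a1 at 3559 against 253 to 553, and Lhcgr at 513 against 48.8 to 216. The part of luteal RNA in the levels of the perilipins was not tested.

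Oviduct markers summed to 25.5 CPM in OxtrTg replicate 3, the library with the least Plin5, and to 2898 CPM in the other OxtrTg library, against 2294 and 872 CPM in WT. Of the 4 tested, 0 were higher and 1 was lower in both OxtrTg libraries, where 14.5% and 11.7% of all genes tested were. Foxj1, the regulator of motile cilia, was at 3.30 CPM in OxtrTg replicate 3 and at 130 to 141 CPM in the others. Ovgp1 was at 15.9 against 582 to 2576, Dnah5 at 0.777 against 141 to 163, and Pax8 at 5.57 against 12.6 to 30.9. The part of oviduct RNA in the Plin5 level was not tested. Of the brown fat markers, Ucp1 had at most 0.119 CPM and Elovl3 at most 0.130 CPM, both under the limit that a count of 0 allows. Cidea, the CIDE relative of brown fat and of some epithelia, was at 0.0648 CPM in OxtrTg replicate 3 and at 5.89 to 9.95 CPM in the others, and Dio2 at 27.4 to 48.8 CPM. Of 6 macrophage markers tested, 2 were higher in both OxtrTg libraries (summed level 778 and 524 CPM in OxtrTg, 615 and 384 in WT). Of 5 endothelial markers 5 were (451 and 446 CPM against 345 and 353), where 14.5% of all genes tested were. The endothelial log2 differences were only 0.26 to 0.52. Neither edgeR nor DESeq2 called any of the macrophage and endothelial markers. Their part in the results was not tested.

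The other lipid droplet genes were 47, of which 43 were tested. In edgeR 0 of them passed in either direction, and DESeq2 called 7 higher and 0 lower. The share called higher by DESeq2 over all genes was 0.431%. In all, 16 of the 43 lay higher and 5 lower in both OxtrTg libraries, where 14.5% and 11.7% of all genes tested did, and the median log2 difference was 0.07. Of those called by DESeq2, Acsl1, which activates fatty acids, was at 160 and 138 CPM in OxtrTg against 32.9 and 30.0 in WT. Dgat2, which makes triglyceride, was at 168 and 130 CPM against 36.5 and 15.7, and Agpat2, an acyltransferase earlier in that path, at 69.6 and 52.6 against 23.0 and 18.5.

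Among lipases and their regulators, Pnpla2, the gene of the lipase ATGL that perilipins hold in check, was at 130 and 113 CPM in OxtrTg against 56.9 and 61.6 in WT. G0s2, its inhibitor, was at 32.8 and 23.4 against 9.99 and 11.8, and Pnpla3, a related droplet protein, at 22.6 and 20.6 against 2.08 and 1.95. Cav1, the caveolin of fat-cell and endothelial membranes, was at 376 and 403 against 242 and 220. The DESeq2 adjusted p of these 7 genes was lowest for Acsl1 (1.3e-29) and highest for G0s2 (0.02). Each of the 7 lay higher in both OxtrTg libraries.

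Of the most abundant droplet genes, Rab7, Rab18 and Soat1 overlapped between the genotypes. Rab7 was at 241 and 246 CPM in OxtrTg against 227 and 252 in WT, and Rab18 at 168 and 161 against 155 and 162. Soat1, which esterifies cholesterol, was at 456 and 360 CPM in OxtrTg against 373 and 719 CPM in WT, highest in the library with the highest luteal markers. Cavin1, which builds caveolae with Cav1, was at 477 and 452 CPM against 402 and 350, higher in both OxtrTg libraries by 0.31 on the log2 scale and called by neither tool.

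The genes most like a member were those with the smallest root mean square distance in log2 deviation over the 4 libraries, among 14631 genes. For Plin1 they were Nat8l, Isl1, Tacr1, Acvr1c and Ucp3, at distances of 0.07 to 0.15. Nat8l, which makes N-acetylaspartate, was at 10.4 and 7.81 CPM in OxtrTg against 2.44 and 3.52 in WT, and Acvr1c (the receptor ALK7) at 16.8 and 9.55 against 2.68 and 4.90. For Plin2 they were Coq8a, Irx5, Lbx2, Prr36 and Plppr2, at distances of 0.03 to 0.07. Coq8a, a gene of coenzyme Q synthesis, was at 98.8 and 65.1 CPM in OxtrTg against 58.4 and 100 in WT. The likeness rests on 4 libraries.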

How the data were processed

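The 4 RNA libraries are labelled mouse ovary, and the labels' protocols name the kit NEBNext Ultra II for them. The deposited table gives a read count and an FPKM value per gene and library, per the file headers. The deposited counts are whole and raw, and the deposited FPKM equals the count over the table's gene length and the library total within 0.00364%. Per the submitters' processing notes the build was mm10. The aligner, counter, strand setting and annotation were not given in the sources used here. Among 21850 gene identifiers found in GENCODE M21 (GRCm38), 2.35% had the same start and end as in the table, so its positions are not mixed with the GRCm38.p6 positions of the RefSeq promoter windows.

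Groups and replicate numbers come from the sample titles. Whether replicates are separate animals is not stated, so the p-values reflect the library-to-library spread alone, and it may be technical. Replicates differed by more than counting noise (chi-square per degree of freedom 43.1 and 41.4). The main test was edgeR 4.0.16 (quasi-likelihood, TMM, filterByExpr with a minimum count of 10) under R 4.3.3, adjusted over all 15311 genes with a threshold of 0.05 and 2 residual degrees of freedom. Fold changes are log2, with the SE of the fit. DESeq2 1.42.0 and limma 3.58.1 served as alternatives, besides other scalings, filters and pseudocounts on FPKM, and fits that omit 1 library each. Such fits by DESeq2 and the contrast without Plin4 were chosen after seeing the data. edgeR, DESeq2 and limma-voom were first tried on simulated data with known changes. Floors cover counting error only.

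The members and lists were chosen with earlier results of these data known, and so are no independent support. Named genes are every member, from the lipid droplet list the 6 most abundant in OxtrTg and those that edgeR or DESeq2 called, from each marker list the first 4 genes, and for Plin1 and Plin2 the 5 genes nearest in pattern with a mean CPM of at least 1. Of 12 adipocyte markers 11 were used, and Lpl, Pparg and Cebpa are named besides the first 4 to show their range. The theca, granulosa, oocyte, hepatocyte and other epithelial marker lists have their values among the closing observations.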

Additional observations from a re-analysis of the deposited data

How the results depend on the processing

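No paired analysis was possible because the groups share no replicate number. Of 162 member log2 differences under the alternatives, 143 kept their direction and their side of the threshold, 11 kept their direction and newly passed it, and 8 turned direction. The counts of edgeR called over all genes (0 higher and 0 lower) became 66 higher and 3 lower in DESeq2, and its members called higher went from 0 to 2, whereas 0 members were called lower in any of the fits. With 1 library left out, 1 arm holds a single library that is assumed to vary like the other group. In such fits edgeR called 0 to 7 genes higher and 0 to 58 lower, and 0 to 1 members higher. The highest of each came without OxtrTg replicate 4, where Cidec passed (log2 difference 3.38, adjusted p = 0.0352, against 0.149 to 1 in the other 3 such fits). DESeq2 with 1 library left out, chosen after seeing the data, called 47, 57, 82 and 44 genes higher and 8, 421, 77 and 2 lower (without OxtrTg replicates 3 and 4 and WT replicates 5 and 6) and 1 to 3 members higher.

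The results that turned were those of Plin2 (-0.26 in edgeR and -0.27 in DESeq2 without OxtrTg replicate 3, -0.25 and -0.26 without WT replicate 5), Plin4 (-0.12 and -0.13 without WT replicate 5) and Fitm2 (-0.13 in both tools without OxtrTg replicate 4), none of which was called there. Their highest values were 0.56 for Plin2 and 1.91 for Plin4, both without WT replicate 6, and 0.36 for Fitm2 without OxtrTg replicate 3. Each has 1 library fewer than the full comparison, and the cause was not tested beyond that. The contrast of fat-cell with widely expressed members was 1.89 and ranged from 1.54 to 2.24 with a library left out and from 1.74 to 1.87 on FPKM with pseudocounts. It was 2.41 with Plin1 and Cidec alone, since Plin4 moved least. The median of all genes was -0.02 to -0.00 on the log2 scale under every scaling tried. Low counts limit Cideb, with 1 count in all, and Plin5, with 14 counts in its lowest library.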

Other observations

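Neighbours in pattern were also ranked for Plin4 and Plin5, a choice made after their values were seen. For Plin4 they included P2rx5, Grin2b, Egr2 and Grik3, at distances of 0.09 to 0.20. Egr2, a zinc finger transcription factor, was at 6.28 and 4.54 CPM in OxtrTg and at 1.84 and 7.28 CPM in WT, and Grik3, a glutamate receptor gene, at 90.9 and 76.0 against 29.9 and 86.8. WT replicate 5 was the low library for each of these, as for Plin4, which follows from how they were picked. For Plin5 they were Ces1b, Deup1, Speer4b, Ccdc87 and 2810459M11Rik, at distances of 0.21 to 0.28. Deup1, which serves centriole amplification in ciliated cells, was at 0.907 and 6.68 CPM in OxtrTg and at 3.51 and 10.3 CPM in WT.

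Among the remaining markers, theca and interstitial genes summed to 1437 and 898 CPM in OxtrTg and to 1041 and 3103 CPM in WT, with Cyp17a1 at 307 CPM in WT replicate 6 and at 56.6 to 100 CPM in the others. Insl3 stayed at 0.802 to 1.26 CPM, Ptch1 at 197 to 240.5 and Aldh1a1 at 556 to 2559. Granulosa genes summed to 2054 and 2246 CPM in OxtrTg and to 1922 and 2402 in WT, with Fshr at 18.6 to 24.9, Amh at 112 to 211 and Inha at 1089 to 1535 CPM. Oocyte genes summed to 570 and 278 CPM in OxtrTg and to 415 and 379.5 in WT, with Zp3 given above, Gdf9 at 73.9 to 168, Bmp15 at 26.4 to 54.3 and Padi6 at 115 to 229 CPM. The macrophage genes Cd68, Adgre1, Mpeg1 and Lyz2 ran from 16.4 to 27.5, 24.0 to 79.2, 78.9 to 112 and 192 to 467 CPM, and only Adgre1 of these 4 was higher in both OxtrTg libraries. The endothelial genes Pecam1, Cdh5, Kdr and Tek ran from 94.0 to 153, 85.7 to 109, 75.0 to 117 and 34.3 to 43.9 CPM. The hepatocyte genes Alb and Serpina1a were at 0.712 CPM or less and Ttr had no count, while Apoa1 was at 20.8 to 61.8 CPM. Epithelial genes summed to 97.9 and 365 CPM in OxtrTg and to 323 and 198 in WT, with Krt8, Krt18 and Epcam lowest in OxtrTg replicate 3, as were the oviduct genes, and Krt5 at 0 in the other 3 libraries.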
